A study of Homo sapiens with 40 samples.

Results

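Cultures of wild-type SEES3 cells, an established human embryonic stem cell line, that the labels call mesoderm (Meso-WT) were set against the cultures of the same line called endoderm (Endo-WT) and ectoderm (Ecto-WT). Each group had 2 polyA RNA libraries, so 6 of the 40 libraries of the series entered the comparison. The genes described are those that differed from both other layers in the same direction: 921 were higher and 1292 were lower in Meso-WT, out of 15444 tested and 16742 listed. The same layers were also deposited for SEES3 cells labelled XKO, YKO and DKO, with 2 libraries per layer and genotype, in a series on knockouts of UTX (encoded by KDM6A) and its Y-linked paralog UTY. These 18 libraries had no part in choosing the genes and give the same contrast in other libraries. The sources used here give no differentiation protocol, no day of harvest and no clone, and every sample carries the label pluripotent stem cells. Whether the 2 libraries of a group came from separate cultures is not stated, so the spread behind each p-value is that between these libraries and may be technical.

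Mesoderm is the germ layer that gives rise to heart, vessels, blood, muscle, kidney and the wall of the gut. In the embryo it forms as cells leave the epiblast through the primitive streak under WNT, BMP, FGF and Nodal signals, lose E-cadherin contacts and switch on T-box and homeobox factors. Lateral plate mesoderm is known for HAND1 and FOXF1, paraxial mesoderm for TBX6 and MSGN1, and the posterior body axis for CDX and HOX genes.

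The values were TPM (an abundance per transcript length, scaled to the same total in each library), and tests were made with limma on log2(TPM + 1). A gene counted as higher or lower where the limma adjusted p was under 0.05 against Endo-WT and against Ecto-WT in the same direction. This scale shrinks the fold change of genes with low values. Genes had to reach 1 TPM in at least 2 libraries of a fit to be tested. Where a gene is said to lose its call with a library left out, this filter was kept as with all 6 libraries. That setting was chosen after the data were seen, and some of these calls held with the filter recomputed. No fold is given against a group whose libraries are both listed at 0, since the number of reads behind the values is not known. The layers were deposited as separate tables, so a difference between layers cannot be told apart from a difference between tables or culture batches. In bulk RNA, fewer cells of a type and less RNA per cell cannot be told apart either. The 2 Meso-WT libraries correlated at 0.948 across genes on the log2 scale, and Meso-WT libraries correlated with those of the other layers at 0.797 to 0.815. Genes at 1 TPM or more numbered 13049 and 13417 in Meso-WT, 13758 and 14091 in Endo-WT, and 13785 and 13617 in Ecto-WT.

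Levels of markers of each layer were read first. The 5 mesoderm markers HAND1, FOXF1, KDR, HAPLN1 and HOXA9 summed to 1007.4 and 997.9 TPM in Meso-WT, against 52.2 and 35.9 TPM in Endo-WT and 36.7 and 42.3 TPM in Ecto-WT. HAND1, FOXF1 and HOXA9 are also among the protein-coding genes with the largest rises in this contrast. Whether these 5 were chosen apart from these data is not established, so their sum is a description and does not check the label. Of 5 endoderm markers, SOX17 was listed at 0 in both Meso-WT libraries, and CER1 and FOXA2 in 1 of them each. GATA6, a factor of heart mesoderm as well as endoderm, had 7.19 and 5.0 TPM in Meso-WT, against 488 and 472 TPM in Endo-WT and 0 in Ecto-WT. The fifth, CXCR4, a chemokine receptor that early mesoderm and endoderm share, was high in Meso-WT (479 and 417 TPM) and in Endo-WT (381 and 347 TPM), with a difference that did not pass the threshold (log2 0.30 ± 0.14, SE, limma adjusted p = 0.163). It accounts for most of the endoderm markers' summed level in Meso-WT, 491.4 and 427.9 TPM, against 31420.1 and 31190.6 TPM in Endo-WT. Of 5 neural ectoderm markers, PAX6 was listed at 0 in both Meso-WT libraries and SOX1 reached 1.5 TPM in 1. SOX2 had 8.15 and 6.05 TPM in Meso-WT, against 152 and 165 TPM in Endo-WT and 1353 and 1395 TPM in Ecto-WT. OTX2 had 24.2 and 31.5 TPM in Meso-WT. NES was high in every layer, with 205 and 192 TPM in Meso-WT, 285 and 321 TPM in Endo-WT, and 474 and 497 TPM in Ecto-WT. It made up most of the neural markers' sum in Meso-WT, 238.6 and 229.4 TPM. That sum was 1104.7 and 1243.9 TPM in Endo-WT and 2299.5 and 2384.2 TPM in Ecto-WT. Among pluripotency markers NANOG was listed at 0 in both Meso-WT libraries, while POU5F1, which encodes OCT4, was still at 85.2 and 68.5 TPM. Ecto-WT was also low, with 1.10 and 0 TPM for NANOG and 136 and 126 TPM for POU5F1. Endo-WT had 144 and 138 TPM for NANOG and 1607 TPM in each library for POU5F1.

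**Figure D1:**
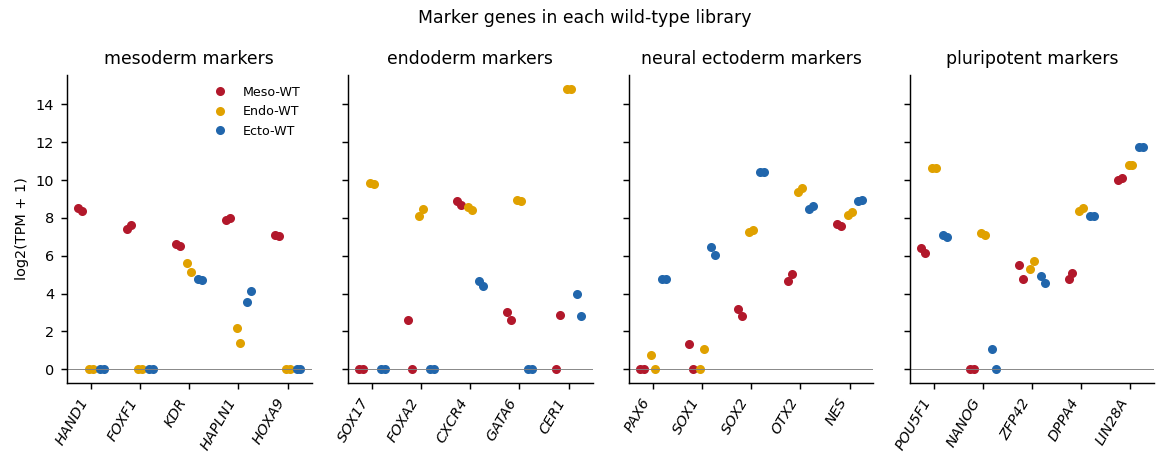
Level of the 20 layer markers in the 6 wild-type libraries, as log2(TPM + 1), with 1 point per library, Meso-WT in red, Endo-WT in yellow and Ecto-WT in blue. HAND1, FOXF1 and HOXA9 lie at 0 outside Meso-WT, KDR and HAPLN1 do not, and CXCR4 is high in both Meso-WT and Endo-WT.

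Against Endo-WT, 1935 genes (12.5% of those tested) were higher in Meso-WT and 2670 (17.3%) were lower. Against Ecto-WT, 1810 (11.7%) were higher and 2783 (18.0%) were lower. Both comparisons share the Meso-WT libraries. The genes higher than in both layers were 5.96% of those tested and the genes lower than in both were 8.37%, and the count of called members in each WT gene list is read against these shares. Of these 921 and 1292 genes, 814 and 1213 were protein coding. Of the higher genes, 179 were listed at 0 in all 4 other libraries, and of the lower genes 201 were listed at 0 in both Meso-WT libraries. The difference was at least 1 on the log2 scale against both layers for 555 higher and 914 lower genes, and at least 3 for 200 and 166. The threshold fell between IKBIP, just inside (limma adjusted p = 0.0171 against Endo-WT and 0.0499 against Ecto-WT), and QTRT1, just outside (limma adjusted p = 0.00176 and 0.0503). Over all genes tested the median log2 difference was -0.07 against Endo-WT and -0.15 against Ecto-WT. Quantile normalisation moved these medians to 0.06 and 0.00 and gave 945 higher and 1013 lower genes, of which 829 and 972 were also called without it.

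**Figure D2:**
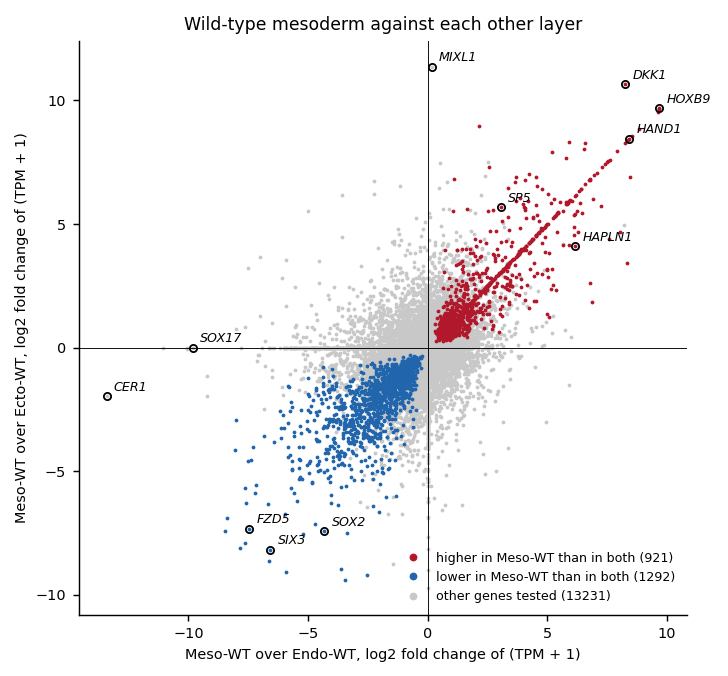
Log2 fold change of (TPM + 1) of Meso-WT over Endo-WT (horizontal) and over Ecto-WT (vertical) for every gene tested, with the 921 genes higher than in both layers in red and the 1292 lower than in both in blue. Genes on the diagonal line at the upper right are listed at 0 in both other layers; MIXL1 and SOX17 lie near an axis, with a difference near 0 from 1 of the layers.

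Lateral plate and cardiac genes were led by HAND1 and FOXF1. HAND1 (chr5:154474972-154478264, minus strand), a basic helix-loop-helix factor of lateral mesoderm, extraembryonic mesoderm and heart, had 369 and 326 TPM in Meso-WT and was listed at 0 in all 4 other libraries (limma adjusted p = 0.000137 against Endo-WT and 0.000115 against Ecto-WT). FOXF1 (chr16:86510527-86515418, plus strand), a forkhead factor of splanchnic mesoderm, had 171 and 195 TPM in Meso-WT and was listed at 0 elsewhere (limma adjusted p = 0.000206 and 0.000182). The groups do not overlap for either gene, which holds for all 921 higher genes and sets neither apart. FENDRR, the long noncoding RNA transcribed away from FOXF1 on the other strand, followed the same pattern with 43.7 and 40.9 TPM in Meso-WT and 0 in the rest. BMP4, the ligand that patterns posterior and lateral mesoderm, was higher in Meso-WT at 313 and 278 TPM, against 16.2 and 7.98 TPM in Endo-WT (log2 fold change 4.57 ± 0.35, SE) and 1.92 and 2.39 TPM in Ecto-WT (6.56 ± 0.35). TBX3, a T-box factor of limb and heart fields, had 155 and 158 TPM in Meso-WT, 27.7 and 24.1 TPM in Endo-WT and 0 in Ecto-WT. MYH6, the atrial myosin heavy chain, was low but seen in Meso-WT alone among the 6 libraries, at 25.3 and 19.8 TPM.

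In the list of 30 lateral plate and cardiac genes, 23 were tested, 5 were higher in Meso-WT than in both layers (HAND1, FOXF1, TBX3, BMP4 and MYH6) and none was lower, beside 5.96% higher and 8.37% lower over all genes. Against Endo-WT alone 6 were higher and 7 lower, and against Ecto-WT alone 10 and 1. Of the 23, 18 would have passed the filter on low values without the Meso-WT libraries, and members that passed only through Meso-WT could hardly be called lower, so the count is a description. The median log2 difference of the tested members was 0.50 against Endo-WT and 1.74 against Ecto-WT. GATA4, a cardiac and endodermal zinc finger factor, was not among the 5: it had 99.9 and 83.9 TPM in Meso-WT, 228 and 185 TPM in Endo-WT and 0 in Ecto-WT. HAND1 and TBX3 are also genes of trophoblast and amnion, whose list had 2 of 10 tested members higher (HAND1 and TBX3) and 2 lower (TFAP2C and IGFBP5). The 10 listed members that the lateral plate list does not hold summed to 507 and 439.4 TPM in Meso-WT, against 140.6 and 114.5 TPM in Endo-WT and 124.1 and 126 TPM in Ecto-WT. Of this sum 501 and 427 TPM in Meso-WT came from BAMBI, a BMP target gene, and TFAP2B, TFAP2C, KRT7 and VTCN1 were listed at 0 in both Meso-WT libraries. The part of such cells in the lateral plate values was not tested. The hindlimb genes PITX1 and TBX4, chosen after their values were seen, were also high in Meso-WT. PITX1 had 67.4 and 85.1 TPM there and at most 1.72 TPM elsewhere, and TBX4 had 41.0 and 45.7 TPM and was listed at 0 elsewhere.

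KDR and HAPLN1 were present in every layer and differed by degree. KDR, the VEGF receptor of endothelial and blood progenitors, had 96.9 and 89.9 TPM in Meso-WT, against 48.7 and 34.3 TPM in Endo-WT and 26.2 and 25.6 TPM in Ecto-WT. Its log2 fold change was 1.17 ± 0.20 over Endo-WT (SE, limma adjusted p = 0.0098) and 1.81 ± 0.20 over Ecto-WT (limma adjusted p = 0.00244). With either Meso-WT library left out the change over Endo-WT no longer passed the threshold, with a highest limma adjusted p of 0.0842. HAPLN1, a link protein that ties hyaluronan to proteoglycans, had 233 and 257 TPM in Meso-WT, against 3.48 and 1.60 TPM in Endo-WT and 10.5 and 16.7 TPM in Ecto-WT (log2 fold change 6.17 ± 0.36 and 4.11 ± 0.36, limma adjusted p = 0.000358 and 0.00112). In the wider endothelial and blood list, of 17 genes tested 3 were higher (KDR, LMO2 and RUNX1) and 2 were lower (VWF and HHEX). Without the Meso-WT libraries 15 of the 17 would have passed the filter. VWF, the clotting factor of mature endothelium, had 0.657 and 0.366 TPM in Meso-WT, against 88.6 and 80.0 TPM in Endo-WT and 32.6 and 29.9 TPM in Ecto-WT. LMO2, a blood progenitor cofactor, had 89.6 and 130 TPM in Meso-WT, against 2.48 and 1.71 TPM in Endo-WT and 26.6 and 15.3 TPM in Ecto-WT. Its call against Ecto-WT was lost without either Meso-WT library or the second Ecto-WT library, with a highest limma adjusted p of 0.0691. Of 23 matrix genes tested, 3 were higher than in both layers and 2 lower, beside 5.96% and 8.37% over all genes. Without the Meso-WT libraries 21 of the 23 would have passed the filter, and COL3A1 would not, so the count is a description. COL3A1, a fibrillar collagen, had 26.3 and 31.5 TPM in Meso-WT and was listed at 0 elsewhere, while tenascin TNC had 2.12 and 2.76 TPM in Meso-WT, against 36.5 and 40.5 TPM in Endo-WT and 54.2 and 33.0 TPM in Ecto-WT.

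HOX genes, the homeobox factors that specify position along the body axis and lie in 4 clusters, gave 4 of the 15 largest rises among protein-coding genes. Of the 39 human HOX genes 31 were listed in the tables and 28 were tested, and 27 of these were higher in Meso-WT than in both layers. For 23 of the 27 every other library was listed at 0. In the HOXA, HOXC and HOXD clusters no tested gene would have passed the filter on low values without the Meso-WT libraries, and in HOXB 1 would, so these genes had to differ once tested and the count is a description. All 9 tested genes of the HOXA cluster, 9 of 10 of HOXB, 4 of 4 of HOXC and 5 of 5 of HOXD were called.

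HOXB9 (chr17:48621159-48626356, minus strand), a factor of the thoracic and more caudal axis, was the highest on the TPM scale, with 810 and 825 TPM in Meso-WT (limma adjusted p = 9.94e-05 against Endo-WT and 7.7e-05 against Ecto-WT). HOXB7 followed with 373 and 383 TPM and HOXB8 with 187 in each library. HOXA9 (chr7:27162435-27175180, minus strand) had 137 and 129 TPM in Meso-WT (limma adjusted p = 0.000252 and 0.000225). These 4 genes were listed at 0 in all 4 other libraries. In HOXC the highest was HOXC4, with 136 and 109 TPM in Meso-WT, 0 in Endo-WT, and 0 and 2.67 TPM in Ecto-WT. In HOXD it was HOXD9, with 80.3 and 87.4 TPM in Meso-WT and 0 elsewhere. The annotated span of HOXB7 covers HOXB8 and HOXB9, and that of HOXC6 overlaps HOXC4, HOXC8 and HOXC9, so reads may have been split between such neighbours.

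Levels in Meso-WT beyond paralog group 9 of HOXA and HOXB were below those of group 9. HOXA13, the last gene of its cluster, had 4.04 and 5.25 TPM in Meso-WT, and its call was lost when genes had to reach 5 TPM in at least 2 libraries, since it was then not tested. The HOX gene that was tested and not called was HOXB13: it had 11.2 and 3.75 TPM in Meso-WT, and up to 18.9 TPM in Endo-WT, the highest HOX value outside Meso-WT.

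**Figure D3:**
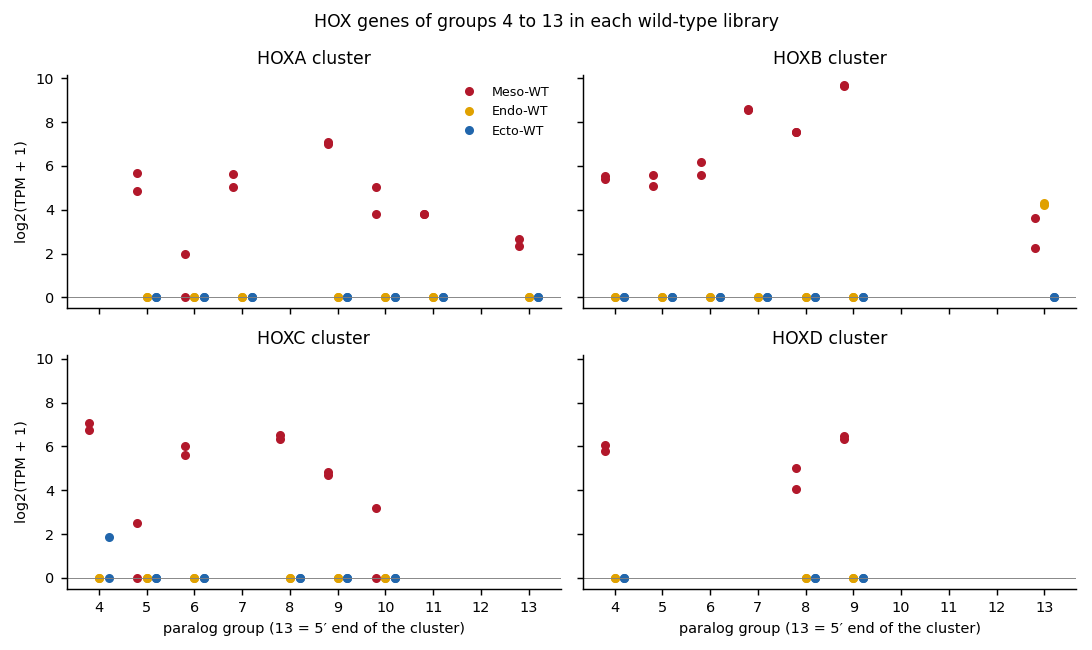
Level of the listed HOX genes of paralog groups 4 to 13, as log2(TPM + 1), by cluster and by paralog group, with 1 point per wild-type library, Meso-WT in red, Endo-WT in yellow and Ecto-WT in blue. Most Meso-WT values lie above 0 in all 4 clusters and they peak at HOXB9, while the other layers lie at 0 for nearly every gene, HOXB13 in Endo-WT being the highest exception.

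CDX factors, which act upstream of HOX genes in the posterior embryo, were seen in Meso-WT and in neither other layer. CDX1 (chr5:150166795-150184558, plus strand) had 931 and 700 TPM in Meso-WT and CDX2 (chr13:27962137-27971139, minus strand) had 450 and 471 TPM, and both were listed at 0 in all 4 other libraries. TBXT, the T-box factor brachyury of the primitive streak and notochord, had 454 and 481 TPM in Meso-WT, against 60.7 and 45.6 TPM in Endo-WT (log2 fold change 3.13 ± 0.30, SE, limma adjusted p = 0.00144) and 9.12 and 17.0 TPM in Ecto-WT (5.11 ± 0.30, limma adjusted p = 0.000357). EVX1, a homeobox gene of the posterior streak, had 128 and 122 TPM in Meso-WT and at most 2.2 TPM elsewhere. Of 16 primitive streak genes tested, 8 were higher in Meso-WT than in both layers and none was lower, beside 5.96% and 8.37% over all genes. Against Endo-WT these 8 were higher and 7 were lower, and against Ecto-WT 9 were higher and none was lower. Without the Meso-WT libraries 13 of the 16 would have passed the filter. Members that passed only through Meso-WT, such as CDX1 and CDX2, could hardly be called lower, so the count is a description. MIXL1, a streak gene shared by the fates that leave it, was not called: it had 2734 and 2526 TPM in Meso-WT, 2352 and 2310 TPM in Endo-WT (log2 difference 0.17 ± 0.09, limma adjusted p = 0.22) and 0 in Ecto-WT.

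Of 19 paraxial and intermediate mesoderm genes tested, 7 were higher in Meso-WT than in both layers and none was lower, beside 5.96% and 8.37% over all genes. Only 13 of the 19 would have passed the filter without the Meso-WT libraries. The rest, MSGN1 and HES7 among them, could hardly be called lower once tested, so this count too is a description. Against Endo-WT 11 were higher and 2 lower, with a median log2 difference of 1.68, and against Ecto-WT 7 and 4, with a median of 0.20. MSGN1 (chr2:17816496-17817101, plus strand), a presomitic mesoderm factor, had 112 and 111 TPM in Meso-WT and was listed at 0 in the other 4 libraries. HES7, an oscillating repressor of the segmentation clock, had 83.5 and 74.8 TPM and was also listed at 0 elsewhere. DLL3, a Notch ligand of the presomitic mesoderm, had 396 and 373 TPM in Meso-WT and at most 6.80 TPM elsewhere. PAX2, a kidney and midbrain factor, had 124 and 106 TPM in Meso-WT, 0 in Endo-WT, and 43.3 and 22.5 TPM in Ecto-WT. TBX6, which directs cells to the paraxial fate, had 98.9 and 70.7 TPM in Meso-WT, 15.9 and 3.12 TPM in Endo-WT, and 3.74 and 0 TPM in Ecto-WT. MESP1, an early cardiac and paraxial factor, was low at 11.5 and 9.63 TPM in Meso-WT. The calls of DLL3, PAX2, TBX6 and MESP1 were lost with 1 library left out, including either Meso-WT library, with highest limma adjusted p of 0.0811, 0.124, 0.254 and 0.212. Those of DLL3, TBX6 and MESP1 were also lost with a pseudocount of 0.1 TPM.

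WNT signalling runs from ligands through Frizzled receptors to TCF and LEF factors, which switch on target genes that include inhibitors of the pathway itself. Of 30 WNT pathway genes tested, 13 were higher in Meso-WT than in both layers and 6 were lower, beside 5.96% and 8.37% over all genes. The median log2 difference was 0.71 against Endo-WT and 1.84 against Ecto-WT. Without the Meso-WT libraries 29 of the 30 would have passed the filter. DKK1 (chr10:52314296-52318042, plus strand), a secreted inhibitor of the LRP coreceptors, had 4604 and 5070 TPM in Meso-WT, against 19.4 and 11.1 TPM in Endo-WT and 8.01 and 0 TPM in Ecto-WT (log2 fold change 8.26 ± 0.97 and 10.65 ± 0.97, SE, limma adjusted p = 0.00269 and 0.0013). The spread of its low values set the error. With the filter of all 6 libraries kept, its call against Endo-WT was lost without either Meso-WT or either Endo-WT library. The log2 fold change over Endo-WT was 7.89 to 8.64 with a library left out. Other feedback inhibitors were high too. NOTUM, which removes the lipid from WNT ligands, had 614 and 563 TPM in Meso-WT, against 7.40 and 3.39 TPM in Endo-WT and 0 and 2.54 TPM in Ecto-WT. NKD1, which binds Dishevelled, had 439 and 440 TPM in Meso-WT, against 6.62 and 4.84 TPM in Endo-WT and 6.49 and 5.96 TPM in Ecto-WT. AXIN2, a scaffold of the beta-catenin destruction complex and a common readout of the pathway, had 390 and 452 TPM in Meso-WT, against 46.7 and 53.0 TPM in Endo-WT and 26.1 and 17.0 TPM in Ecto-WT. RNF43, a ligase that removes Frizzled receptors, had 27.0 and 33.0 TPM in Meso-WT and was listed at 0 elsewhere.

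Among the ligands, WNT5B had 509 and 450 TPM in Meso-WT, against 3.39 and 5.83 TPM in Endo-WT and 14 and 6.97 TPM in Ecto-WT. WNT5A had 269 and 326 TPM in Meso-WT, against 9.04 and 7.60 TPM in Endo-WT and 31.5 and 34.1 TPM in Ecto-WT. WNT3A was lower in level, at 86.6 and 50.8 TPM in Meso-WT, against 7.20 and 1.65 TPM in Endo-WT and 0 in Ecto-WT, and its call against Endo-WT was lost without either Meso-WT library (highest limma adjusted p 0.0838). The Frizzled receptors parted. FZD10 had 701 and 674 TPM in Meso-WT, against 13.1 and 12.1 TPM in Endo-WT and 14.5 and 13.5 TPM in Ecto-WT (log2 fold change 5.66 ± 0.14 and 5.52 ± 0.14, SE). FZD5 had the largest difference among protein-coding genes lower in Meso-WT, with 3.88 and 1.62 TPM there, against 610 and 637 TPM in Endo-WT and 557 and 584 TPM in Ecto-WT (log2 fold change -7.45 ± 0.28 and -7.32 ± 0.28). FZD8 had 65.7 and 53.5 TPM in Meso-WT, against 366 and 398 TPM in Endo-WT and 249 and 245 TPM in Ecto-WT. Secreted Frizzled-related proteins, which bind WNT ligands, were lower: SFRP1 had 62.0 and 57.0 TPM in Meso-WT, against 1061 and 1193 TPM in Endo-WT and 1804 and 1891 TPM in Ecto-WT. SFRP2 had 58.1 and 61.0 TPM in Meso-WT, against 713 and 622 TPM in Endo-WT and 1147 and 1218 TPM in Ecto-WT.

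Of the nuclear factors, LEF1 had 304 and 338 TPM in Meso-WT, 0 in Endo-WT, and 29.9 and 27.6 TPM in Ecto-WT. TCF7 had 48.0 and 51.6 TPM in Meso-WT, against 10.7 and 11.8 TPM in Endo-WT and 5.29 and 5.13 TPM in Ecto-WT. SP5, a zinc finger target gene of the pathway, had 958 and 940 TPM in Meso-WT, against 135 and 93.0 TPM in Endo-WT and 14.3 and 21.4 TPM in Ecto-WT (log2 fold change 3.07 ± 0.25 and 5.68 ± 0.25, SE). LEF1 and TCF7 are known to bind DNA at the letters CTTTGAA, which read TTCAAAG on the other strand. These letters were looked for on both strands in the 250 bases before RefSeq gene starts (build GRCh38.p14), for the 25 called genes of the WNT, primitive streak and paraxial lists. The table held 15 of the 25 with 21 windows, and CDX2, DKK1, MSGN1, SP5 and TBXT had a match. Over all 35116 windows 1336 (3.8%) had one. The first count is of genes, some with more than 1 window, and the second is of windows, so they cannot be compared. The windows of SP5, DKK1, CDX2 and MSGN1 are printed 5′ to 3′ on the strand of the gene, to show where the letters, in capitals, stand. SP5 holds the letters at 2 places and the other 3 genes at 1. A match describes the letters only and is no measure of binding.
SP5 promoter, chr2:170715087-170715336, plus strand: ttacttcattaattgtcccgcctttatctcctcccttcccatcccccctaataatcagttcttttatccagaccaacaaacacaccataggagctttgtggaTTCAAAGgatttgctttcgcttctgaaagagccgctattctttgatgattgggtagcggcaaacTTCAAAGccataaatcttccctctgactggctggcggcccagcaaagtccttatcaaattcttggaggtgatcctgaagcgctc
DKK1 promoter, chr10:52314031-52314280, plus strand: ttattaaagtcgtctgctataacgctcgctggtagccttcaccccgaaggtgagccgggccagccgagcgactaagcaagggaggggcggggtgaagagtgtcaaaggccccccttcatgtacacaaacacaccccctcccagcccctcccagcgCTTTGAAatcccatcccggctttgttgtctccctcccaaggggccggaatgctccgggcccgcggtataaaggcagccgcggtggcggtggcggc
CDX2 promoter, chr13:27969316-27969565, minus strand: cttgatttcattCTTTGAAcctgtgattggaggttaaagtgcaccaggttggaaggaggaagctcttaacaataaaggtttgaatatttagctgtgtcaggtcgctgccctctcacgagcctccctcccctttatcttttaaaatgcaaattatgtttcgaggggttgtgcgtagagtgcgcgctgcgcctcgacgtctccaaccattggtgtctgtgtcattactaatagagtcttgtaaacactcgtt
MSGN1 promoter, chr2:17816210-17816459, plus strand: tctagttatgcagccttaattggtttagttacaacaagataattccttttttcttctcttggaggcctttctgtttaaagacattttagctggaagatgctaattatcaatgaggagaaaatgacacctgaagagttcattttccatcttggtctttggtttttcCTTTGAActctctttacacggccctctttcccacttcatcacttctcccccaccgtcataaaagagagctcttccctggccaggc

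**Figure D4:**
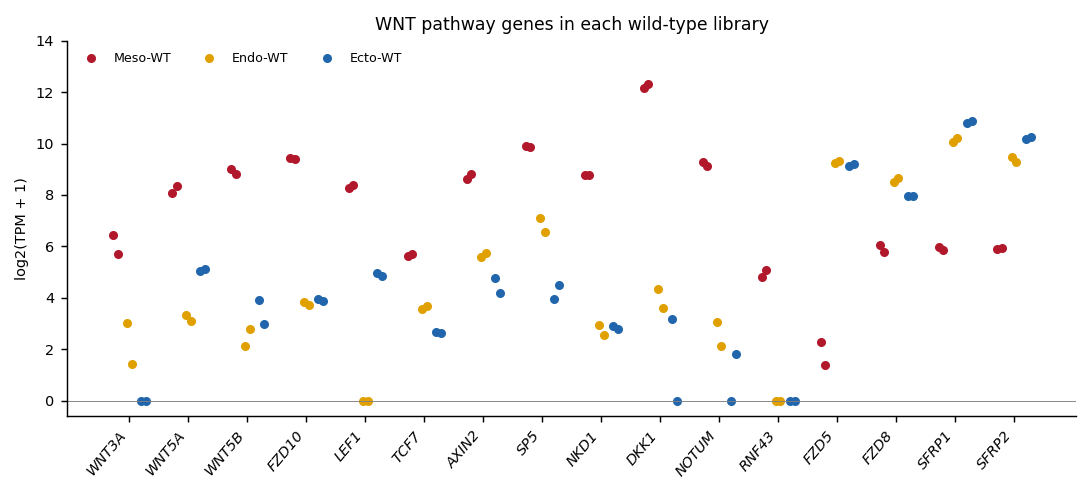
Level of 16 WNT pathway genes in the 6 wild-type libraries, as log2(TPM + 1), from ligands at the left through receptors, nuclear factors and targets to the receptors and ligand-binding proteins that were lower, with 1 point per library. The first 12 genes are higher in Meso-WT (red) than in Endo-WT (yellow) and Ecto-WT (blue), and FZD5, FZD8, SFRP1 and SFRP2 are lower.

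BMP signalling showed ligands that moved in opposite directions. BMP2 had 0 and 1.07 TPM in Meso-WT, against 227 and 183 TPM in Endo-WT and 65.3 and 68.8 TPM in Ecto-WT, whereas BMP4 was higher in Meso-WT. The type I receptor BMPR1A was lower in Meso-WT at 21.5 and 24.8 TPM, against 61.9 and 64.9 TPM in Endo-WT and 57.4 and 61.4 TPM in Ecto-WT. Target genes went different ways. MSX1, a homeobox gene that BMP signals induce, had 1561 and 1323 TPM in Meso-WT and at most 2.80 TPM elsewhere (limma adjusted p = 0.000973 against Endo-WT and 0.00101 against Ecto-WT). MSX2 had 408 and 429 TPM in Meso-WT, against 9.69 and 4.45 TPM in Endo-WT and 0 and 3.32 TPM in Ecto-WT. ID3, an inhibitor of helix-loop-helix factors, had 849 and 755 TPM in Meso-WT, against 336 and 297 TPM in Endo-WT and 317 and 198 TPM in Ecto-WT. ID2 and ID1, of the same family, were not called: the log2 difference of ID2 was 2.10 against Endo-WT and -0.60 against Ecto-WT, where it did not pass, and that of ID1 was -0.99 and 1.71, both past the threshold. The secreted antagonists differed as well: NOG had 35.7 and 27.8 TPM in Meso-WT, 0 in Endo-WT, and 3.10 and 3.86 TPM in Ecto-WT, while CHRD had 1.03 and 0 TPM in Meso-WT, 45.6 and 41.1 TPM in Endo-WT, and 4.48 and 4.47 TPM in Ecto-WT. In all, 5 of 25 tested genes of the list were higher and 4 lower. With 1 library left out the calls of MSX2, ID3 and CHRD were lost, in 3, 4 and 5 of the 6 such fits, with highest limma adjusted p of 0.0626, 0.108 and 0.112. CHRD was also lost under quantile normalisation and a pseudocount of 0.1 TPM, and MSX2 under that pseudocount.

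Of 22 FGF pathway genes tested, 3 were higher in Meso-WT than in both layers and 5 were lower. FGF8, a ligand of the streak and presomitic mesoderm, had 404 and 369 TPM in Meso-WT, against 132 and 83.6 TPM in Endo-WT and 50.1 and 62.5 TPM in Ecto-WT. FGF19 had 915 and 848 TPM in Meso-WT, against 67.1 and 43.4 TPM in Endo-WT and 26.1 and 8.12 TPM in Ecto-WT. The receptor FGFR2 had 5.40 and 4.01 TPM in Meso-WT, against 82.5 and 106 TPM in Endo-WT and 86.9 and 89.7 TPM in Ecto-WT. DUSP6, a phosphatase that ERK signalling induces, was lower in Meso-WT at 38.9 and 41.4 TPM, against 194 and 245 TPM in Endo-WT and 185 and 159 TPM in Ecto-WT. Both FGF ligands lost the call against Endo-WT without either Meso-WT library, and FGF19 without either Endo-WT library, with highest limma adjusted p of 0.0589 for FGF8 and 0.0682 for FGF19.

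Genes of retinoic acid, a vitamin A product that patterns the trunk, were called in both directions. CYP26A1, an enzyme that breaks it down, had 0 and 1.28 TPM in Meso-WT, against 531 and 480 TPM in Endo-WT and 138 and 224 TPM in Ecto-WT. CYP26B1, another such enzyme, had a log2 difference of 2.22 against Endo-WT, past the threshold, and 0.98 against Ecto-WT, which did not pass. ALDH1A2, the enzyme that makes it in the embryo, had 35.3 and 24.3 TPM in Meso-WT and at most 0.91 TPM elsewhere. STRA6, the retinol importer, had 178 and 151 TPM in Meso-WT and at most 14.8 TPM elsewhere. The 2 cytosolic binding proteins of the acid went opposite ways. CRABP2 had 2391 and 2252 TPM in Meso-WT, against 113 and 96.0 TPM in Endo-WT and 554 and 704 TPM in Ecto-WT. CRABP1 had 21.4 and 15.9 TPM in Meso-WT, against 472 and 443 TPM in Endo-WT and 520 and 501 TPM in Ecto-WT. Of 17 genes tested in this list 5 were higher and 2 lower. In the Notch list 3 of 17 were higher and 5 lower, with HES6, in mouse an antagonist of HES1, at 1177 and 1144 TPM in Meso-WT and at most 87.0 TPM elsewhere, and the receptor NOTCH3 at 48.6 and 46.1 TPM in Meso-WT and 152 to 222 TPM elsewhere.

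Genes of the passage from epithelium to mesenchyme, in which cells give up E-cadherin junctions, were called in both directions: 6 of 20 tested were higher in Meso-WT and 6 lower. VIM, the mesenchymal intermediate filament, had 893 and 901 TPM in Meso-WT, against 174 in both Endo-WT libraries and 191 and 176 TPM in Ecto-WT (log2 fold change 2.36 ± 0.08 and 2.28 ± 0.08, SE). SNAI1, a repressor of E-cadherin, had 248 and 214 TPM in Meso-WT, against 42.2 and 31.9 TPM in Endo-WT and 6.96 and 8.67 TPM in Ecto-WT. E-cadherin, CDH1, had 0 and 1.25 TPM in Meso-WT, against 373 and 388 TPM in Endo-WT and 8.79 and 12.2 TPM in Ecto-WT, so the gap to Ecto-WT was small in TPM. Its call against Ecto-WT was lost without either Ecto-WT library (highest limma adjusted p 0.0649). ESRP1, an epithelial splicing factor, had 0 and 0.78 TPM in Meso-WT, against 208 and 205 TPM in Endo-WT and 25.6 and 16.7 TPM in Ecto-WT. N-cadherin, CDH2, which mesenchymal cells often gain, was lower in Meso-WT at 184 and 190 TPM, against 369 and 387 TPM in Endo-WT and 270 and 269 TPM in Ecto-WT, and this call was lost when all 24 layer libraries entered 1 fit. EPCAM was lower than in Endo-WT, and its difference from Ecto-WT did not pass (11.2 and 12.5 TPM in Meso-WT, 594 and 802 TPM in Endo-WT, 17.1 and 39.5 TPM in Ecto-WT; limma adjusted p against Ecto-WT = 0.0887). SNAI2 (27.0 and 11.6 TPM in Meso-WT, at most 2.25 TPM elsewhere) lost its call with a pseudocount of 0.1 TPM. With the filter of all 6 libraries kept, it also lost its call with any of the 6 libraries left out.

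Genes lower in Meso-WT than in both layers included anterior neural and pluripotency factors. Of 27 neural ectoderm genes tested, 12 were lower in Meso-WT than in both layers, 24 were lower than in Ecto-WT whether or not they were lower than in Endo-WT, and 1 was higher than in both. SIX3, a homeobox factor of the forebrain and eye, had 2.52 and 0 TPM in Meso-WT, against 188 and 166 TPM in Endo-WT and 516 and 569 TPM in Ecto-WT. OTX2, a head organiser and forebrain factor, had 24.2 and 31.5 TPM in Meso-WT, against 667 and 757 TPM in Endo-WT and 360 and 402 TPM in Ecto-WT. ZIC2 had 45.6 and 35.8 TPM in Meso-WT, against 607 and 708 TPM in Endo-WT and 642 and 649 TPM in Ecto-WT. LHX5, a forebrain LIM-homeobox gene, was listed at 0 in both Meso-WT libraries, against 4.69 and 4.84 TPM in Endo-WT and 537 and 640 TPM in Ecto-WT. SHISA2, which retains Frizzled and FGF receptors in the cell in frog embryos, had 0 and 0.989 TPM in Meso-WT, against 236 and 302 TPM in Endo-WT and 94.1 and 125 TPM in Ecto-WT. Of 19 definitive endoderm genes tested, 18 were lower than in Endo-WT and 4 (HHEX, KIT, OTX2 and CYP26A1) were lower than in both.

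Guidance molecules were among the 10 protein-coding genes lower in Meso-WT with the largest differences from both layers. NTN1, the secreted guidance cue netrin, had 0 and 0.593 TPM in Meso-WT, against 260 and 240 TPM in Endo-WT and 72.1 and 56.5 TPM in Ecto-WT. The semaphorins SEMA6B and SEMA5B were listed at 0 in both Meso-WT libraries and had 39.5 to 110 TPM in the other 4. PKDCC, a secreted kinase, had 0 and 0.972 TPM in Meso-WT, against 95.5 and 72.0 TPM in Endo-WT and 734 and 780 TPM in Ecto-WT. BST2, an interferon-induced membrane protein that tethers viruses, was listed at 0 in both Meso-WT libraries and had 45.7 to 70.1 TPM in the others.

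Of 25 pluripotency genes tested, 15 were lower in Meso-WT than in both layers and none was higher, with a median log2 difference of -3.69 against Endo-WT and -1.13 against Ecto-WT. PRDM14 was listed at 0 in both Meso-WT libraries, against 36.4 and 41.8 TPM in Endo-WT and 30.1 and 43.7 TPM in Ecto-WT. DPPA4 had 26.0 and 33.5 TPM in Meso-WT, against 325 and 367 TPM in Endo-WT and 272 and 278 TPM in Ecto-WT. ESRG, a noncoding RNA of human pluripotent cells, had 2.17 and 0 TPM in Meso-WT, against 293 and 236 TPM in Endo-WT and 106 and 104 TPM in Ecto-WT. DNMT3B, a DNA methyltransferase, had 183 and 189 TPM in Meso-WT, against 671 and 603 TPM in Endo-WT and 721 and 749 TPM in Ecto-WT. LIN28A, an RNA-binding protein, was still high in Meso-WT at 1037 and 1095 TPM, against 1759 and 1803 TPM in Endo-WT and 3388 and 3437 TPM in Ecto-WT. ZFP42, also called REX1, did not differ past the threshold, with 43.8 and 25.8 TPM in Meso-WT, 37.9 and 52.2 TPM in Endo-WT, and 29.1 and 22.3 TPM in Ecto-WT (limma adjusted p = 0.403 and 0.411).

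Among the noncoding genes that were lower stood 3 hairpin genes of the miR-302 cluster, microRNAs of pluripotent cells; they were picked for their values. MIR302A, MIR302C and MIR302D were listed at 0 in both Meso-WT libraries. In Endo-WT they had 104 to 582 TPM and in Ecto-WT 109 to 344 TPM. These are reads of a polyA library over hairpins of 68 and 69 bases, where few reads give a high TPM, and they do not measure the mature microRNAs. The hairpins lie on the minus strand of chromosome 4 (chr4:112648183-112648251 for MIR302A) within the span of LARP7 on the plus strand, and whether strand was used in counting is not given in the sources used here. LARP7 was lower in Meso-WT as well, at 68.3 and 97.0 TPM, against 210 and 264 TPM in Endo-WT and 343 and 377 TPM in Ecto-WT. Its call against Endo-WT was lost without the second Endo-WT library (highest limma adjusted p 0.0604), and its part in the hairpin values was not tested. The mature sequences, from RefSeq (GRCh38.p14), are shown because the 3 share 1 seed, bases 2 to 8, in capitals, and so belong to 1 target family.
hsa-miR-302a-3p: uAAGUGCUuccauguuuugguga
hsa-miR-302c-3p: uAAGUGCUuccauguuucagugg
hsa-miR-302d-3p: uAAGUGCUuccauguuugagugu

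The same contrast was then read in the libraries labelled XKO, YKO and DKO. The knockout labels could not be checked on the targeted genes. KDM6A had 5.05 and 3.95 TPM in Meso-XKO and 8.71 and 6.72 TPM in Meso-DKO, against 4.29 and 4.14 TPM in Meso-WT. UTY had 13.4 and 14 TPM in Meso-YKO and 26.4 and 21.3 TPM in Meso-DKO, against 11.9 and 10.8 TPM in Meso-WT. Both are totals over the whole gene, and neither gene was low in these mesoderm libraries labelled as its knockout. Within WT, KDM6A was lower in Meso-WT than in Endo-WT (31.3 and 34.8 TPM) and Ecto-WT (10.9 and 8.36 TPM), and UTY likewise (23.5 and 22.6 TPM in Endo-WT, 29 and 20.9 TPM in Ecto-WT). Both calls were lost under quantile normalisation and with 1 library left out (highest limma adjusted p 0.133 and 0.142).

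Of the 921 genes higher in Meso-WT, 548 (59.5%) were again higher than in both layers in XKO, 366 (39.7%) in YKO and 305 (33.1%) in DKO. Over all genes tested the same call was made for 6.85% in XKO, 3.67% in YKO and 5.0% in DKO. Of the 1292 lower genes, 965 (74.7%) were again lower in XKO, 715 (55.3%) in YKO and 266 (20.6%) in DKO, with 15.7%, 7.99% and 4.52% over all genes. For the higher genes no call was opposite in XKO or YKO, and 9 were in DKO. For the lower genes 1 was opposite in XKO, none in YKO and 10 in DKO. In the XKO and YKO fits the median log2 difference over all genes was -0.33 and -0.33 against endoderm and -0.36 and -0.51 against ectoderm, and 0.02 and -0.03 in DKO. Higher genes were 30.3% of those called in XKO and 31.5% in YKO as deposited, and 47.3% and 49.5% after quantile normalisation. In YKO the 366 genes became 560 when all 24 libraries shared 1 fit.

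HAND1, FOXF1, HOXA9, HOXB9, CDX1, CDX2, MSGN1, TBXT, SP5 and DKK1 were called higher in mesoderm in each of the 3 other genotypes. HAND1 had 216 and 278 TPM in Meso-XKO, 196 and 173 TPM in Meso-YKO, and 115 and 97.9 TPM in Meso-DKO, and in the endoderm and ectoderm of these genotypes it was listed at 0 except for 7.98 TPM in 1 Endo-XKO library. CDX2 had 433 and 419 TPM in Meso-XKO, 502 and 378 TPM in Meso-YKO, and 248 and 238 TPM in Meso-DKO, and was listed at 0 in all other libraries. DKK1 had 5687 and 5123 TPM in Meso-XKO, 5690 and 4285 TPM in Meso-YKO, and 5819 and 6397 TPM in Meso-DKO, and stood lowest against Endo-DKO, where it had 244 and 190 TPM. In the HOXA cluster 9 of 9 tested genes were called higher in XKO, 9 of 9 in YKO and 5 of 6 in DKO, beside 6.85%, 3.67% and 5.0% over all genes. In WT no tested HOXA gene would have passed the filter without the Meso-WT libraries. A gene tested only through mesoderm is nearly bound to be called higher, so these counts are a description. Genes below the filter are left out, hence the lower number tested in DKO. In the WNT list 11 of 30, 11 of 31 and 15 of 32 tested genes were higher in XKO, YKO and DKO, beside 6.85%, 3.67% and 5.0% over all genes. In the same order 7, 6 and 9 were lower, beside 15.7%, 7.99% and 4.52% over all genes.

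KDR was not called in any of the 3. It had 48.1 and 28.8 TPM in Meso-XKO, 16.2 and 11 TPM in Meso-YKO, and 1.37 and 3.75 TPM in Meso-DKO. In YKO it was lower in mesoderm than in ectoderm, where it had 45.8 and 59.6 TPM (limma adjusted p = 0.0125). In DKO it was lower in mesoderm than in endoderm, where it had 11.9 and 10.9 TPM (limma adjusted p = 0.0436), and it had 1.52 and 0.857 TPM in Ecto-DKO. In the fit of 24 libraries the layer effect of KDR in DKO minus that in WT was -3.06 ± 0.49 against endoderm (SE, limma adjusted p = 0.000756), and did not pass against ectoderm. In YKO it was -3.70 ± 0.49 against ectoderm (limma adjusted p = 0.00275), and did not pass against endoderm. HAPLN1 had 282 and 250 TPM in Meso-XKO and 159 and 106 TPM in Meso-YKO and was called higher there. In DKO it was called lower in mesoderm, with 8.39 and 7.67 TPM in Meso-DKO, against 17.8 and 23.0 TPM in Endo-DKO and 23.3 and 21.0 TPM in Ecto-DKO (limma adjusted p = 0.0231 and 0.0184). COL3A1 was also turned round in DKO, with 12.2 and 6.16 TPM in Meso-DKO, against 54.3 and 83.0 TPM in Endo-DKO and 530 and 344 TPM in Ecto-DKO.

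The difference between the layer effect in a knockout label and that in WT was tested in 1 fit of the 24 libraries. In DKO the effect was lower than in WT against both layers for 242 genes (1.46% of 16622) and higher for 401 (2.41%). Among the 921 genes higher in Meso-WT it was smaller in DKO for 109 and larger for 4, and among the 1292 lower genes it was smaller for 210 and larger for 6. The WT values that chose these genes also enter the difference, so these counts carry no independent support. In XKO the difference passed for 2 genes (0.0120%), both lower, and in YKO for 2 lower (0.0120%) and 1 higher (0.00602%). FOXF1 had 17.2 and 18.6 TPM in Meso-DKO, against 171 and 195 TPM in Meso-WT, and its effect differed by -3.28 ± 0.50 on the log2 scale (SE, limma adjusted p = 0.00053 against endoderm and 0.000441 against ectoderm). HOXA9 had 4.28 and 5.88 TPM in Meso-DKO, against 137 and 129 TPM in Meso-WT. HOXB9, in contrast, kept 412 and 460 TPM in Meso-DKO, against 810 and 825 TPM in Meso-WT, and its difference did not pass. TBXT differed in the other direction, by 2.47 ± 0.73 against endoderm, with 567 and 521 TPM in Meso-DKO and 11.2 and 9.45 TPM in Endo-DKO. Its level in Endo-DKO was well below that in Endo-WT, given above, while its levels in Meso-DKO and Meso-WT were closer.

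**Figure D5:**
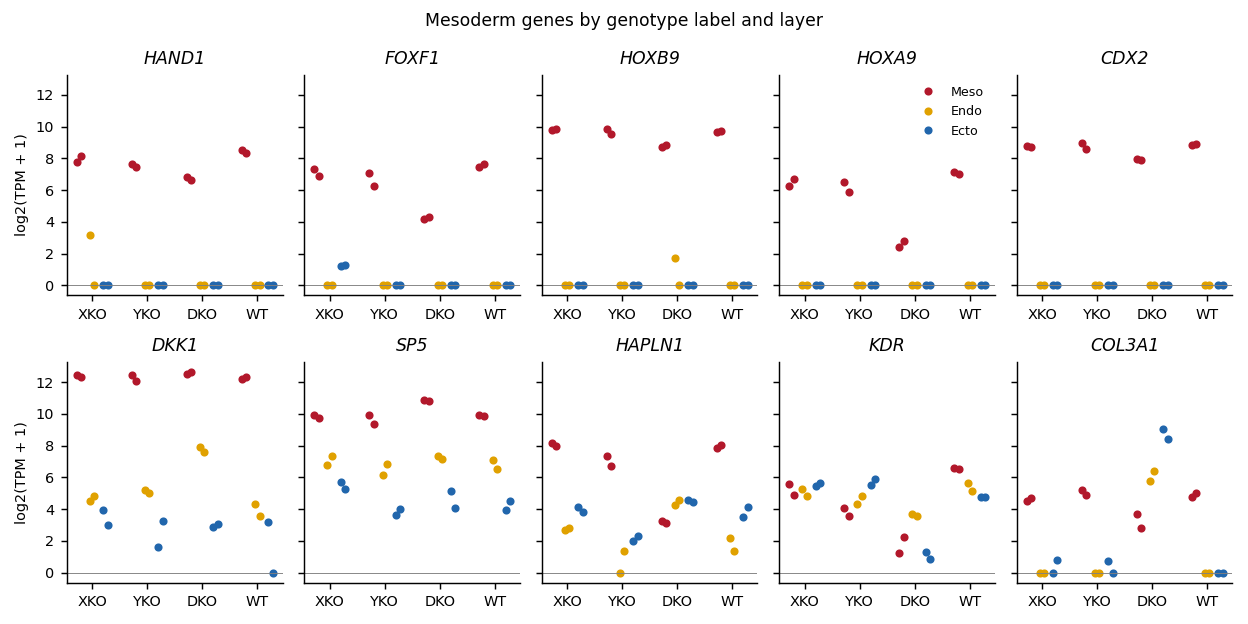
Level of 10 genes as log2(TPM + 1) in mesoderm (red), endoderm (yellow) and ectoderm (blue) of libraries labelled XKO, YKO, DKO and WT, with 1 point per library. HAND1, HOXB9, CDX2, DKK1 and SP5 are highest in mesoderm in all 4 genotypes. FOXF1 and HOXA9 are lower in Meso-DKO than in Meso-WT but were still called higher in mesoderm in DKO. HAPLN1 and COL3A1 are lower in mesoderm than in the other layers in DKO.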

How the data were processed

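PolyA RNA of 24 SEES3 germ layer libraries (2 for each of 3 layers and 4 genotype labels) was analysed here. The authors deposited TPM per gene, 1 table per layer, over 16742 Ensembl identifiers in the same order. The tools were RSEM, STAR and featureCounts on builds GRCh38 and hg38, per the submitters' processing notes; versions, annotation release, strand setting and any filter on genes were not given in the sources used. The TPM tables hold no read totals, so depth is unknown. Column headers carry the group and no replicate number. Symbols were found for 16709 identifiers (99.8%) in the reference table, and positions are those of GENCODE v29 (GRCh38).

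Tables were joined by identifier. Values were tested as log2(TPM + 1) with limma 3.58.1 (trend) in R 4.3.3 for genes at 1 TPM or more in at least 2 of the 6 libraries of a genotype, with layer as the only term and Benjamini-Hochberg adjustment over all genes tested. The threshold was an adjusted p under 0.05, and errors are SE. The fit was tested on simulated data. Knockout labels were fitted apart, and the difference in layer effect in a fit of 24 libraries chosen after the results were seen.

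The text draws on the 5 markers, the 15 highest and 10 lowest protein-coding genes by the smaller of both fold changes, and up to 4 called genes of each of 29 lists (2 where none was called). Other genes were chosen after their values were seen, and a few that the rule selects are not reported here. Members and lists were chosen with earlier results of these data known, so no list is independent evidence of its direction. Alternatives were a pseudocount of 0.1, no filter or one at 5 TPM, quantile normalisation, all 24 libraries in 1 fit and each library left out.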

Additional observations from a re-analysis of the deposited data

Results flagged for a closer look

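In each gene below the layer effect (mesoderm against endoderm, and against ectoderm) in a knockout label differed from that in WT by the test of the difference itself, in the fit of 24 libraries with limma. The genes had been picked on WT libraries that also enter the difference, and the test was added after the data were seen. The value is the difference against endoderm on the log2(TPM + 1) scale, negative where the layer effect was lower in the knockout label; where libraries are listed at 0 it is no fold.

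In DKO the lateral plate and limb genes that passed had values of -3.28 for FOXF1, -3.96 for FENDRR, -4.55 for MYH6, -3.47 for TBX3, -3.09 for GATA4, -5.17 for PITX1 and -4.81 for TBX4. HAND1 and BMP4 did not pass against both layers. Of the 22 lateral plate and cardiac genes tested in DKO, 5 were higher and 1 lower in mesoderm than in both layers. Over all genes these calls were made for 5.0% and 4.52%. MYH6 was listed at 0 in both Meso-DKO libraries. Of the HOX genes named, HOXA9 had -4.48, HOXA13 -2.49 and HOXD9 -3.55. The matrix genes HAPLN1 and COL3A1 had -7.41 and -7.71.

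Among signalling genes in DKO the value was -4.51 for FZD10, -3.33 for WNT5B, -5.57 for MSX2 and -4.40 for HES6. FZD10 had 206 and 213 TPM in Endo-DKO, against 13.1 and 12.1 TPM in Endo-WT, so the endoderm level moved as well. GRAP2 had -7.89, NPY -7.50 and DEFA5 -2.14.

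The value was positive in DKO for TBXT at 2.47, for BMP2 at 4.03, for CDH1 at 6.05, for ESRP1 at 4.48, for SHISA2 at 2.49, for SOX2 at 2.56, for ZIC2 at 2.26, for DPPA4 at 1.88, for NTN1 at 4.93 and for SEMA5B at 2.15. CDH1 had 1.92 and 4.05 TPM in Endo-DKO, against 373 and 388 TPM in Endo-WT, while both mesoderm groups were at 1.25 TPM or less. BST2 had 5.6 in DKO, where all 6 libraries were listed at 0, and 3.82 in YKO, where the Meso-YKO libraries had 4.65 and 9.74 TPM, against 0 in Meso-WT.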

How the results depend on the processing

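No paired analysis was possible because the columns of the layer tables carry no replicate number. The alternatives were a pseudocount of 0.1, no filter, a filter at 5 TPM, quantile normalisation and 1 fit of 24 libraries. Under these 5 each count of called genes stayed within 1.5 times its value, except the genes called again in YKO, 366 as reported and 560 with 24 libraries in 1 fit. No named gene that was called changed direction under any setting run. The counts did depend on single libraries. With 1 library left out, which leaves a layer with a lone library assumed to vary like the others, the genes called against Endo-WT numbered 2456 to 4338 (4605 with all) and against Ecto-WT 2335 to 4186 (4593). Those higher than in both layers numbered 288 to 680 (921) and those lower 750 to 940 (1292). Those called again numbered 314 to 448 in XKO (548), 116 to 255 in YKO (366) and 117 to 265 in DKO (305). The 288 and 359 genes without the first or second Meso-WT column came with genes seen only in Meso-WT no longer passing the filter, 27 of the 109 called genes named here. With the filter of all 6 libraries kept, an alternative chosen after seeing the data, the ranges were 2310 to 3802, 2227 to 3508, 438 to 588 and 651 to 816. Of the 109 called genes named, 90 to 99 stayed called in these fits, 72 to 105 in those with the filter recomputed, and 102 to 108 under each of the 5 other alternatives. The losses told gene by gene are from the fits with the filter of all 6 libraries kept. With the filter recomputed, the calls of DKK1, MSX2, DLL3, FGF8, FGF19, URAD, LMO2, LARP7 and CDH1 held in each fit. That of KDR held without the second Meso-WT column, and that of SNAI2 without the first Endo-WT or the second Ecto-WT column. The unknown depth limits what a value listed at 0 can show.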

Other observations

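Several genes best known from immune cells were among those higher in Meso-WT than in both layers. TRDC, the constant segment of the T cell receptor delta chain, had 275 and 216 TPM in Meso-WT and was listed at 0 in the other 4 WT libraries. It had 458 and 443 TPM in Meso-XKO, 292 and 395 TPM in Meso-YKO, and 1035 and 1329 TPM in Meso-DKO. The gamma chain segments TRGC1 (47.5 and 27.9 TPM in Meso-WT) and TRGC2 (27.0 and 22.5 TPM) were listed at 0 in the other 4 as well; they are near-identical copies, so the split of reads between them is uncertain. GRAP2, an adaptor of T cell receptor signalling, had 225 and 168 TPM in Meso-WT and was listed at 0 in the other 4, but had 0 and 0.961 TPM in Meso-DKO. DEFA5, a defensin of intestinal Paneth cells, had 301 and 368 TPM in Meso-WT and was listed at 0 in the other 4, and it had 85.9 and 65.5 TPM in Meso-DKO.

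Other leading genes were of mixed function. NPY, a neuropeptide, had 115 and 136 TPM in Meso-WT and was listed at 0 in the other 4. TTC29, a protein of sperm tail axonemes, had 177 and 162 TPM in Meso-WT and was listed at 0 in the other 4. URAD, an enzyme of urate breakdown whose gene (chr13:27977714-27988654) is next to CDX2 on the same strand, had 381 and 326 TPM in Meso-WT and 0 to 7.64 TPM elsewhere; its call was lost without either Meso-WT or either Endo-WT library, with a highest limma adjusted p of 0.0757.

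The remaining lists are given as counts higher and lower than in both layers, beside 5.96% and 8.37% over all genes tested. Among 24 replication and mitosis genes tested 2 were higher and none lower, among 23 of glycolysis and hypoxia 2 and 3, and among 17 of stress and immediate early response 1 and 1. Of 15 Nodal and Activin genes none was higher and 3 were lower, and 12 were lower than in Endo-WT, with a median log2 difference of -1.85. Of the lists for cells the cultures could also hold, neurons had 1 higher and 2 lower of 10 tested, neural crest 3 and 2 of 13, surface ectoderm 0 and 3 of 12, hepatic and gut endoderm 1 and 2 of 7, and smooth muscle 1 and 2 of 11. Without the Meso-WT libraries 7 of the 10 neuron genes and 5 of the 7 hepatic and gut genes would have passed the filter. Of 12 KDM6 genes and cofactors none was higher and 4 were lower.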
